A study of Drosophila melanogaster with 4 samples.

Results

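Chaperone and small heat shock genes were examined as 6 genes, DnaJ-1, Hsc70-5, Hsp26, l(2)efl, HIP and Cnx99A, of the 2406 genes that were measured on 3 or more arrays. They were chosen by name, through the current symbol of the Entrez identifier in the platform annotation. The slide carried 16 clones of these genes, of which 9 were measured on 3 or more arrays and 7 on none. Here and below, a gene counts as on the slide only through clones named by that gene alone. Of the 4208 clones measured on 3 or more arrays, 2551 were named by 1 gene, and genes behind the rest were not counted. The data were 4 microarrays of spotted cDNA clones hybridized with Drosophila melanogaster head RNA. Each array set a pool of male heads in Cy5 against another in Cy3, both from unmated wild type Oregon-R flies on normal food, so that no allele, drug or other treatment separated the pools. Flies were 3 to 4 days old. Both pools of replicates 2, 3 and 4 came from flies kept 12 h in the vessel, whereas replicate 1 paired a Cy5 pool of 12 h with a Cy3 pool of 6 h. This NF-NF comparison (NF, normal food) was the untreated control of a study of the convulsant pentylenetetrazole, and the drug arrays were not analysed here.

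Molecular chaperones bind unfolded or partly folded proteins and keep them from aggregating. Hsp70 proteins do so in cycles of ATP binding and hydrolysis, in which J domain proteins such as DnaJ-1 speed up hydrolysis and HIP, the Hsp70 interacting protein, is known from mammals to hold the ADP-bound form. Hsc70-5 is the Hsp70 of the mitochondrial matrix. Hsp26 and l(2)efl are small heat shock proteins, which hold unfolding proteins without using ATP, and Cnx99A is a calnexin, a lectin that retains glycoproteins in the endoplasmic reticulum until they fold. Hsp26 and DnaJ-1 are induced by heat shock in the fly.

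Every value below is a centred log2 ratio of Cy5 over Cy3 unless another scale is named, that is, the mean of the duplicate spots of a clone minus the median of its array. A positive value means only a higher signal in the Cy5 pool as labelled. The study's methods mention dye-swapped slides within each set of arrays, but the sources used here do not name them. Spots with a value numbered 8429, 8414, 7966 and 2240 of 27648 on replicates 1, 2, 3 and 4, and the array medians subtracted were 0.14, 0.00, 0.08 and -0.70. The 6 genes had values for 9, 9, 9 and 5 clones on these arrays. Duplicate spots differed by a median of 0.102 to 0.126 over the arrays. Ratios give no level, so the tissue label could be checked only by which markers were detected. Of the marker genes on the slide, 5 of 11 of photoreceptors, 5 of 5 of neurons and 3 of 6 of glia had values, among them Arr1, trpl, nSyb and Gs2, whereas trp and Arr2 had none. Markers of muscle (7 of 10), fat body and yolk (4 of 7), digestive tract (3 of 9) and male reproductive tract (2 of 7) also had values. Detection thus does not set heads apart from other tissues.

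No clone of the 6 genes passed the test against 0, in which limma with Benjamini-Hochberg adjustment over 4208 clones called 0 clones, a background of 0%. At an unadjusted p under 0.05 the fit held 4 of the 9 clones against 30.2% of all clones. One clone of DnaJ-1 was higher, against 13.4% of all clones, and another clone of DnaJ-1 and both clones of HIP were lower, against 16.9%. The mean of the 9 clones ranged from -0.54 for a clone of HIP to 0.83 for a clone of DnaJ-1, with a median of -0.18, where the median over all clones was 0.00. Their SD over the arrays had a median of 0.30, where that over all clones was 0.17. The SD also differed with the number of arrays, with a median of 0.16 over clones on 3 arrays and 0.23 over clones on 4.

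**Figure D1:**
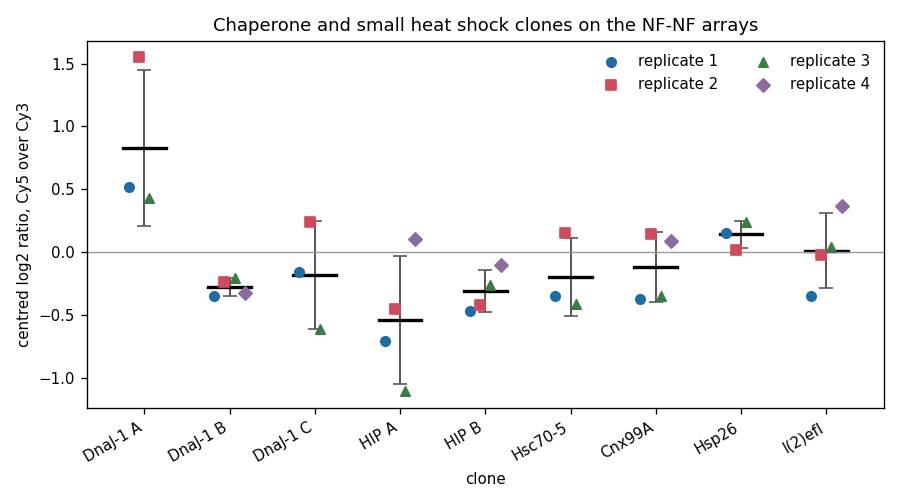
Centred log2 ratio of Cy5 over Cy3 for each clone of the 6 genes. Points are arrays (replicates 1 to 4), black bars means and whiskers the SD over 3 or 4 arrays. The DnaJ-1 clones lie on both sides of 0, from a mean of 0.83 for clone A to -0.28 for clone B.

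DnaJ-1, a J domain partner of cytosolic Hsp70, had the most clones, 8 on the slide, of which 3 had values. They are called A, B and C by their order in the table. Clone A was at 0.52, 1.55 and 0.43 on replicates 1, 2 and 3 and had no value on replicate 4. It was thus above the array median wherever it was measured, with replicate 2 far above the other arrays. Its mean of 0.83 ± 0.62 (SD, n = 3) was a 1.78-fold ratio and stood at percentile 99.8 of the means of all clones, and its limma adjusted p was 0.0791. Its spread was also among the widest, at percentile 98.4 of the SDs of all clones. The mean fell to 0.47 when replicate 2 was left out and was 0.99 and 1.03 when replicate 1 or 3 was. The duplicate spots of clone A differed by 0.004, 0.007 and 0.021 on the 3 arrays, less than the median duplicate difference of each of them (0.115, 0.102 and 0.124). On each single array the clone was at percentile 98.4, 99.8 and 90.0 of the clones. Its direction rests on the dye orientation, since the mean was -0.48 or -0.20 when replicates 2 and 3, or 2 and 4, were taken as the swapped slides.

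DnaJ-1 clone B moved the other way. It was at -0.35, -0.24, -0.21 and -0.33 on replicates 1 to 4, below the array median on every array, and its 4 values lay closer together than those of most clones, with an SD at percentile 11.1. The mean was -0.28 ± 0.07 (SD, n = 4), and the limma 95% confidence interval ran from -0.46 to -0.11, with an adjusted p of 0.0811. One-class SAM, run as an alternative at a false discovery rate of 5%, called this clone (rate 2.69%) among 246 of 4208 clones. Before the array medians were subtracted, the mean was -0.40 ± 0.42 (SD, n = 4).

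DnaJ-1 clone C lay on both sides of the median, at -0.16, 0.24 and -0.61 on replicates 1, 2 and 3. Its mean of -0.18 ± 0.43 (SD, n = 3) did not pass the test against 0 (limma adjusted p = 0.468, 95% confidence interval -0.55 to 0.20). With the median of the neighbouring spots of the table subtracted in place of the array median, its mean was 0.14. The clones of DnaJ-1 therefore did not share a direction, and their average per array of 0.01, 0.52, -0.13 and -0.33 gave a gene mean of 0.01 ± 0.36 (SD, n = 4), in which replicate 4 rests on clone B alone.

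Clones of 1 gene give separate readings of that gene on the same array, so their differences were taken within arrays. Clone A of DnaJ-1 exceeded clone B by 0.87, 1.78 and 0.64 on replicates 1, 2 and 3. The mean difference of 1.10 ± 0.60 (SD, n = 3) was a 2.14-fold ratio. Among all 135 pairs of clones of 1 gene it was the highest, where the median was 0.20 and the upper quartile 0.35. Clone A exceeded clone C by 0.67, 1.30 and 1.04, a mean of 1.01 ± 0.32 (SD, n = 3), at percentile 99.3 of the pairs. Both differences had 1 sign on every array. The exact sign-flip permutation test gave p = 0.25 for each (two-sided, adjusted p = 0.5 over 4 such tests), the smallest p that 3 arrays allow, so that the test could not pass the threshold. The size of these differences on each array, though not their common sign, is the same whichever slides were swapped. Clones B and C differed by -0.19, -0.48 and 0.40, with no common sign and a mean of -0.09 ± 0.45 (SD, n = 3, exact permutation p = 0.75). No clone sequence was at hand, and whether clone A detects other transcripts beside DnaJ-1 was not tested.

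**Figure D2:**
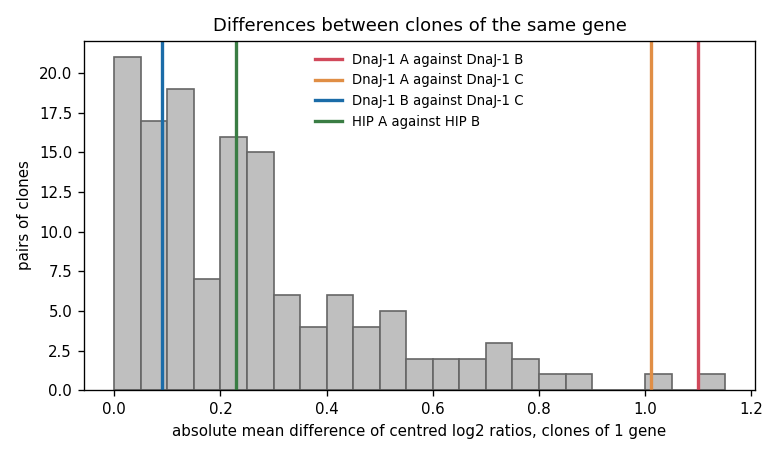
Histogram of the absolute mean difference in centred log2 ratio between clones of 1 gene, over 135 pairs. Vertical lines mark the pairs of DnaJ-1 and HIP clones. Clone A of DnaJ-1 against clones B and C, at 1.10 and 1.01, lies at the far right, and HIP at 0.23 lies among the other pairs.

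HIP had 2 clones on the slide, both with values on all 4 arrays. Clone A was at -0.71, -0.45 and -1.11 on replicates 1, 2 and 3 and at 0.10 on replicate 4. Replicate 4 was thus the only array on which the clone was not below the median. The mean of -0.54 ± 0.51 (SD, n = 4) was at percentile 2.47 of all clones, with a limma adjusted p of 0.0976 and a 95% confidence interval from -0.93 to -0.15. Clone B was at -0.47, -0.42, -0.26 and -0.10, below the median on every array, with replicate 4 again the least negative. Its mean of -0.31 ± 0.17 (SD, n = 4) had a limma adjusted p of 0.0903. The clones differed by -0.24, -0.03, -0.85 and 0.21 on replicates 1 to 4, a mean of -0.23 ± 0.45 (SD, n = 4) at percentile 58.5 of the pairs of clones of 1 gene. With replicates 2 and 3 taken as the swapped slides, the means of clones A and B were 0.24 and 0.03. The difference between the clones had no common sign (exact permutation p = 0.375, two-sided, adjusted p = 0.5).

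Before centring, clone A of HIP had a mean of -0.66 ± 0.26 (SD, n = 4) and clone B a mean of -0.43. The clones nearest to clone A in the table, 11 with values, had medians of -0.21, -0.19 and -0.50 on replicates 1, 2 and 3. The mean of clone A after subtraction of the neighbouring spots was -0.37 and that of clone B was -0.32. The means of the HIP clones were thus closer to each other after this subtraction than with the array median. In the gene table used for names, HIP has a close copy, HIP-R, with 4 genes between them, and 0 clones on the slide were named HIP-R. Signal from HIP and HIP-R cannot be told apart here.

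The test without replicate 4 called 379 of 3976 clones, a background of 9.53%, and 3 of the 9 clones of the 6 genes. These were HIP clone A at -0.76 (limma adjusted p = 0.0188), DnaJ-1 clone A at 0.83 (limma adjusted p = 0.0381) and HIP clone B at -0.39 (limma adjusted p = 0.0428). DnaJ-1 clone A has no value on replicate 4, so no value of its own was left out with that array. Replicate 4 had by far the fewest spots and the lowest median of the arrays, and which of these went with the change was not tested.

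Clones below the array median on every array with a value made up 25.1% of all clones, and 2 of the 9 clones, DnaJ-1 B and HIP B, were of this kind. Clones above it on every array made up 25.3%, and 2 of the 9, DnaJ-1 A and Hsp26, were of this kind. Neither count departs much from its background. A pattern noticed in the values, below the median on replicates 1 and 3 and above it on replicate 2, was shared by DnaJ-1 C, Hsc70-5 and Cnx99A. These were 3 of the 9 clones, and 11.7% of 3976 clones with values on these arrays had it. Since the pattern was chosen from the same 9 clones, the shares cannot be compared. Clones nearest in the table had it in their medians for DnaJ-1 C (-0.55, 0.05 and -0.50) and Cnx99A (-0.05, 0.06 and -0.20). Those nearest to Hsc70-5 did not, at -0.10 on replicate 2. Per array, 7 of 9 clones lay below the median on replicate 1, 4 of 9 on replicate 2, 6 of 9 on replicate 3 and 2 of 5 on replicate 4.

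Hsc70-5, which folds proteins arriving in the mitochondrial matrix, had 2 clones on the slide and a value for 1 of them. The clone was at -0.35, 0.15 and -0.41 on replicates 1, 2 and 3, low on replicates 1 and 3 and slightly high on replicate 2. Its mean of -0.20 ± 0.31 (SD, n = 3) did not pass the test against 0 (limma adjusted p = 0.322, 95% confidence interval -0.51 to 0.10). After subtraction of the neighbouring spots, the mean was 0.05. The clones nearest to it in the table, 14 with values, had medians of -0.27, -0.10 and -0.39, low on the same arrays as the clone.

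Cnx99A, the calnexin, had 2 clones on the slide and a value for 1. It was at -0.37, 0.14, -0.35 and 0.09 on replicates 1 to 4, low and high by turns with no array apart from the rest. The mean was -0.12 ± 0.28 (SD, n = 4, limma adjusted p = 0.472, 95% confidence interval -0.38 to 0.13). On the shared arrays Cnx99A and Hsc70-5 ran side by side, with Hsc70-5 minus Cnx99A at 0.02, 0.01 and -0.06, a mean of -0.01 ± 0.04 (SD, n = 3). After subtraction of the neighbouring spots the mean difference was 0.18.

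Hsp26, a small heat shock protein that is also made in unstressed flies, had 1 clone. It was at 0.15, 0.02 and 0.24 on replicates 1, 2 and 3, above the median on each but hardly so on replicate 2. The mean of 0.14 ± 0.11 (SD, n = 3) had a limma adjusted p of 0.356 and a 95% confidence interval from -0.09 to 0.37. As deposited the mean was 0.21, and after subtraction of the neighbouring spots it was 0.08.

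l(2)efl, the other small heat shock protein, also had 1 clone. It was at -0.35, -0.02, 0.04 and 0.37 on replicates 1 to 4, and the lowest and highest arrays were nearly the same distance from 0. The mean of 0.01 ± 0.30 (SD, n = 4) was the closest to 0 of the 9 clones (limma adjusted p = 0.951, 95% confidence interval -0.25 to 0.28). As deposited the mean was -0.11 and after subtraction of the neighbouring spots it was 0.14. Replicate 1, the array labelled with pools of unequal hours, was the lowest for this gene, and whether the hours had a part in that was not tested.

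**Figure D3:**
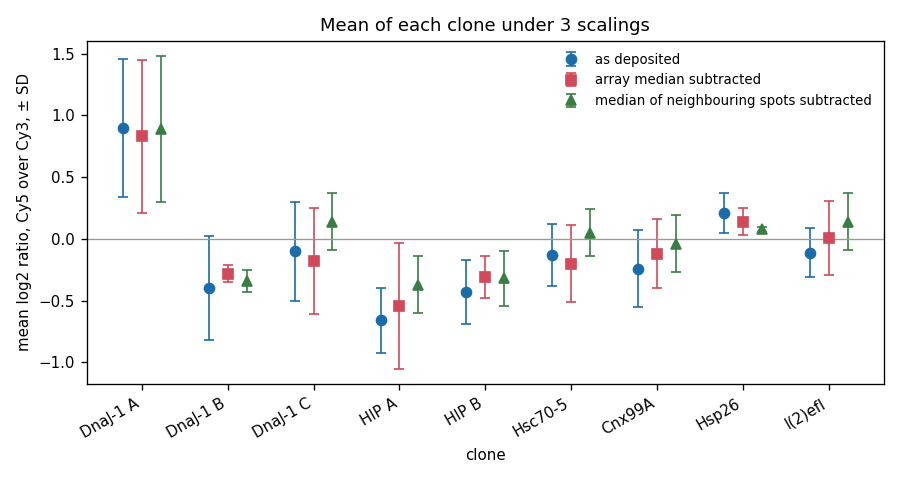
Mean log2 ratio of Cy5 over Cy3 with SD over 3 or 4 arrays for each clone, as deposited, with the array median subtracted and with the median of the neighbouring spots subtracted. DnaJ-1 A is above 0 and DnaJ-1 B and both HIP clones are below 0 under each scaling, whereas DnaJ-1 C, Hsc70-5 and l(2)efl change side.

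The order of the gene means was Hsp26 at 0.14 ± 0.11 (SD, n = 3), then DnaJ-1 at 0.01 ± 0.36 and l(2)efl at 0.01 ± 0.30, Cnx99A at -0.12 ± 0.28, Hsc70-5 at -0.20 ± 0.31 (SD, n = 3) and HIP at -0.43 ± 0.30 (SD, n = 4 where not given). Each of these neighbours in the order differed by less than the SD of at least 1 of them. Over the 15 pairs of genes, differences taken within arrays kept 1 sign on every shared array in 6 pairs, and HIP was the lower gene in 4 of these. Both the order and the common signs rest on the dye orientation as labelled. With replicates 2 and 3 taken as the swapped slides, HIP was the highest gene at 0.13 and DnaJ-1 the lowest at -0.18, and 0 of the pairs kept 1 sign. With replicates 2 and 4 swapped, Hsp26 was the highest at 0.12, Hsc70-5 the lowest at -0.31 and 4 pairs kept 1 sign, and with replicates 3 and 4 swapped, DnaJ-1 was the highest at 0.25, l(2)efl the lowest at -0.20 and 2 pairs kept 1 sign. The differences that follow are those with the labels as given. HIP was below l(2)efl by 0.44 ± 0.20 and below Cnx99A by 0.31 ± 0.21 (SD, n = 4 for both), with exact permutation p-values at the smallest that 4 arrays allow. HIP was below Hsp26 by 0.71 ± 0.24 and below Hsc70-5 by 0.37 ± 0.19 (SD, n = 3 for both, exact permutation p = 0.25, the smallest for 3 arrays). DnaJ-1 exceeded Hsc70-5 by 0.33 ± 0.05 and Hsp26 exceeded l(2)efl by 0.25 ± 0.23 (SD, n = 3 for both). The small SD of the DnaJ-1 difference rests on an average of clones that oppose each other. Adjusted over the 15 pairs, the exact permutation p lay between 0.536 and 1, and no pair could pass the threshold.

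The genes with the values most like each clone were found by the root mean square difference of centred log2 ratios over the arrays of that clone, among clones named by 1 gene. Nearest to DnaJ-1 A were Kpc2 at 0.319 and CG2076 at 0.34 over 3 arrays, which were also high on replicate 2, at 1.64 and 1.46, but not on replicate 1, at -0.02 and -0.05. Its profile thus had no close match. DnaJ-1 B was nearest to Septin4 (0.0731, 4 arrays) and DnaJ-1 C to Noc2 (0.0678, 3 arrays). HIP A was nearest to bc10 (0.13, 4 arrays) and HIP B to Gasp (0.0685, 4 arrays), so that the clones of a gene had different nearest genes. Hsc70-5 was nearest to DCP2 (0.0147, 3 arrays), Hsp26 to Sk1 (0.0124, 3 arrays), l(2)efl to CG42784 (0.0713, 4 arrays) and Cnx99A to twf (0.0666, 4 arrays). Matches over 3 arrays were sought among more clones and fewer values than those over 4, so these distances do not compare between them.

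**Figure D4:**
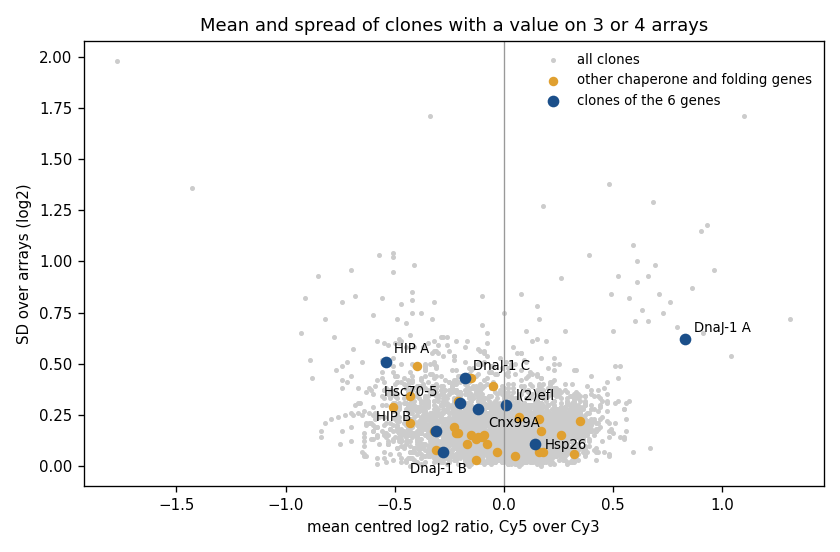
Mean centred log2 ratio and SD over arrays (both log2) of 4208 clones (grey), 31 clones of other chaperone and folding genes (orange) and 9 clones of the 6 genes (blue). DnaJ-1 A stands at the right edge, with a mean of 0.83 and an SD of 0.62, and the other folding genes lie within -0.51 and 0.35.

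The rest of the folding machinery was described from lists of 126 other chaperone and folding genes, of which 76 were on the slide and 31 had values, each by 1 clone. None of these 31 clones passed the limma test over all clones, and 8 had an unadjusted p under 0.05 (25.8%, against 30.2% of all clones), 5 of them lower and 3 higher. Their median was -0.12, with 9 clones above 0 and 22 below. No cytosolic Hsp70 partner of DnaJ-1 and HIP could be read by name. The 3 Hsp70 genes with clones named by them alone, Hsc70-1, Hsc70-2 and Hsp68, had no values. Clones without a name were not counted, so other Hsp70 genes may have been spotted.

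Among other J domain proteins, 9 of 30 on the slide had values. The highest was Sec63, which works in translocation into the endoplasmic reticulum, at 0.35 ± 0.22 (SD, n = 3, limma adjusted p = 0.104), and the lowest was jdp at -0.43 ± 0.21 (SD, n = 3, limma adjusted p = 0.0802). After subtraction of the neighbouring spots, Sec63 was at 0.13 and jdp at -0.23. None of these other J domain proteins came near the 0.83 of DnaJ-1 clone A. Of the Hsp70 cochaperones, which are the class of HIP, STUB1, a ubiquitin ligase, was at -0.09 and Sgt at -0.21. All 4 measured clones of the Hsp90 group were below 0, from CG1416 at -0.40 to p23 at -0.15, and none passed the test, and p23 was at 0.15 after subtraction of the neighbouring spots. Of the small heat shock proteins listed beside Hsp26 and l(2)efl, only CG7409 had a clone named by it alone, with -0.12 ± 0.28 (SD, n = 3). Others may have been among the clones without a name.

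In the endoplasmic reticulum, where Cnx99A works, 6 other genes had values. They ranged from Ero1L, the oxidase of disulfide bond formation, at -0.51 to Edem2, which acts in the disposal of misfolded glycoproteins, at 0.32. In the mitochondrion, the compartment of Hsc70-5, Tom70 was at 0.16 and Tom20 at -0.22, both receptors of protein import. The cytosolic chaperonin subunits CCT1 and CCT3, which belong to 1 complex, were at 0.26 and -0.43. After subtraction of the neighbouring spots, Tom70 was at -0.02, Tom20 at -0.04, CCT1 at 0.04 and CCT3 at -0.41. Ero1L was then at -0.29 and Edem2 at 0.33. Without replicate 4, the limma test called 3 of the 29 other folding clones tested, against 9.53% of all clones. These were Ero1L at -0.52 (limma adjusted p = 0.0377), jdp at -0.43 (limma adjusted p = 0.0428) and Sgt at -0.37 (limma adjusted p = 0.0449).

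**Figure D5:**
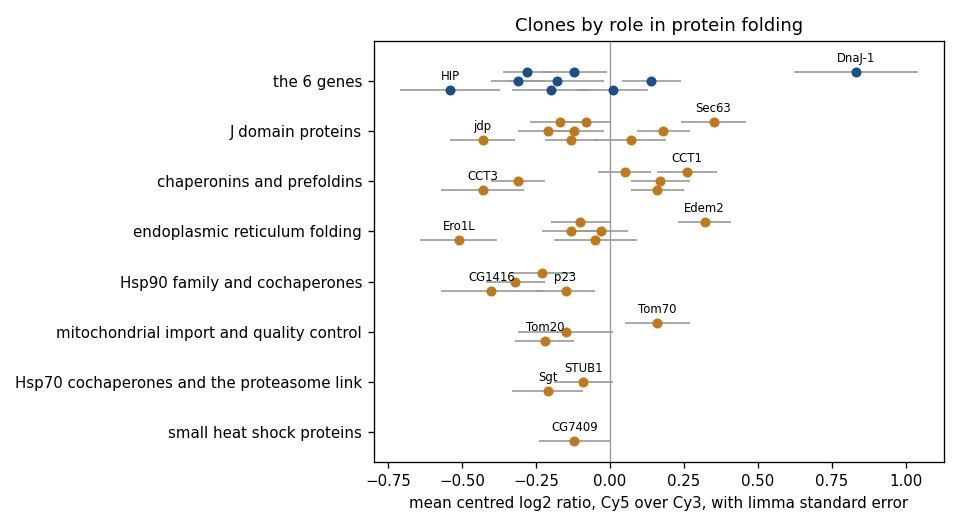
Mean centred log2 ratio of Cy5 over Cy3 with the limma standard error for each clone of the 6 genes and of 7 lists of other folding genes, with the highest and lowest clone of each list named. The other folding genes lie between -0.51 and 0.35, and DnaJ-1 A lies apart at 0.83.

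Heads were sieved from frozen flies, so markers of other tissues were read on the same arrays. The fat body and yolk list, 4 of 7 genes on the slide, had means of 0.39, 0.20, 0.33 and 0.95 on replicates 1 to 4, with Yp1, Fbp1 and fit without values. The yolk proteins carried these means, with Yp3 at 1.49, 0.34, 1.31 and 2.08 and Yp2 at 0.89, 0.30 and 0.36 on replicates 1 to 3. Lsp2 had a mean over arrays of 0.05, and clones of apolpp had means of -0.14 and 0.00. The digestive tract list, 3 of 9 genes, had means of 0.40, -0.01, 0.42 and 0.38. On replicate 4 the fat body and yolk mean rested on Yp3 at 2.08 and 1 clone of apolpp at -0.17. On replicate 2, where DnaJ-1 A was at its highest, the means of both lists were at their lowest of the 4 arrays. Within the fat body and yolk list this held for Yp2 and Yp3, whereas Lsp2 and apolpp were at their highest on that array. The means of the photoreceptor, muscle, male reproductive tract and glia lists were at their highest on replicate 2, at 0.17, 0.19, 0.31 and -0.02. Their members were mixed, since inaD, Gli, Tm2 and TpnC73F were at their lowest on that array and ocn was higher on replicate 1. The neuron list was at -0.15 on replicate 2, within its range of -0.23 to -0.12 over the arrays. The part of these tissues in the values of the 6 genes was not tested. In pools of whole heads, fewer cells of a type and less RNA per cell cannot be told apart.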

How the data were processed

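The deposited values were log2 ratios of Cy5 over Cy3 that the authors made with GenePix Pro 6.0 and ratio normalization in Acuity 4.0. Per the study's methods, spots under 100 units of raw intensity were ignored in that normalization, and spots were kept with under 3% saturated pixels, a regression R2 over 0.6 and a signal-to-noise ratio over 3, so dim clones have no value. RNA came from pooled heads and was amplified before labelling.

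Of 27648 spots, adjacent duplicates were averaged into 13824 clones (7609 pairs with a name on both spots, 0 with different names). Clones with values on at least 3 of 4 arrays were analysed (4208), and each array's median over them was subtracted. Symbols were updated through a RefSeq gene table for 97.9% of 15218 annotated probes. Each clone was tested against 0 with limma 3.58.1 in R 4.3.3, two-sided, with Benjamini-Hochberg adjustment at 0.05, after checks on simulated data. Differences were tested by exact sign-flip permutation in Python with SciPy 1.17.1. The 4 arrays form 1 group, and their number limits the precision. p-values measure only the spread between these arrays.

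Alternatives were the values as deposited, subtraction of the running median of 49 neighbouring spots, turned signs of pairs of arrays, other filters, clones averaged, each replicate left out, and one-class SAM (the methods' test, rebuilt on the centred values with 16 sign patterns and a constant at percentile 5). The 6 genes, the lists and the tests were chosen with earlier results of these data known. Named were all clones of the 6 genes, the highest and lowest gene of each list, any that passed a test, and, of the nearest genes, the first for each clone (the first and the one after it for DnaJ-1 A). No clone sequence was used.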

Additional observations from a re-analysis of the deposited data

Results flagged for a closer look

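Of 14 sets of 4 array values examined for a single array far from the rest, among the clones, genes and differences described, 0 held one by Dixon's critical value, where chance gives about 0.7. Clones, genes and differences with values on 3 arrays, DnaJ-1 A among them, were not examined in this way. No other result met a criterion for a closer look.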

How the results depend on the processing

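The limma calls over all 4208 clones numbered 0, against 2 after subtraction of the neighbouring spots and 1 with clones on at least 2 arrays. One-class SAM called 246 at a false discovery rate of 5%. With replicate 1, 2 or 3 left out, only 726, 734 and 950 clones had the 3 values needed, and 0, 1 and 0 were called. With replicate 4 left out, 379 of 3976 clones were called, so these counts cover unlike sets of clones. Among the 9 clones of the 6 genes the calls numbered 0, and 1 with SAM (DnaJ-1 B). Without replicate 1, 2 or 3 only 5 of the 9 were tested, not including DnaJ-1 A, and 0 were called. Without replicate 4 all 9 were tested and 3 were called. Among the 31 other folding clones the calls numbered 0, and 2 with SAM (Edem2 and Pfdn6). Without replicates 1, 2 and 3 only 3, 3 and 5 of them were tested, with 0 calls each. Without replicate 4, 29 were tested and 3 were called. In an alternative added after the data were seen, clones on at least 2 arrays gave 85 calls of 4209 clones without replicate 1 and 384 of 4216 without replicate 4. The 384 held 3 of the 9 clones of the 6 genes and 3 of the 31 other folding clones. The 85 held 0 of the 31 other folding clones and 1 of the 9 clones of the 6 genes, DnaJ-1 A at 0.99 (limma adjusted p = 3.92e-05). DnaJ-1 A then rested on 2 values, 1.55 and 0.43 on replicates 2 and 3. Its p there leans on the spread that limma shares across clones. Over all alternatives the limma adjusted p of DnaJ-1 A lay between 3.92e-05 and 1, that of HIP A between 0.0179 and 1 and that of HIP B between 0.0428 and 1. Turning the sign of replicates 2 and 3 gave -0.48 for DnaJ-1 A, 0.07 for DnaJ-1 C, -0.04 for Hsp26, 0.24 for HIP A and 0.03 for HIP B. Turning replicates 2 and 4 gave -0.20 for DnaJ-1 A, 0.00 for DnaJ-1 B and -0.17 for l(2)efl. Turning replicates 3 and 4 gave 0.23 for DnaJ-1 C, 0.07 for Hsc70-5, -0.02 for Hsp26, -0.20 for l(2)efl and 0.01 for Cnx99A. Each clone of the 6 genes thus turned or came to 0 under at least 1 choice of swapped slides. Replicate 1 was kept as labelled in all of these choices. Turning the remaining arrays in place of a pair gives means of the same size with the opposite sign. In another alternative added after the data were seen, the same turns in that sequence gave gene means of -0.18, -0.08 and 0.25 for DnaJ-1 (0.01 as labelled) and 0.13, -0.21 and -0.09 for HIP (-0.43 as labelled), and 0, 4 and 2 pairs of genes with 1 sign on every shared array (6 as labelled). Subtraction of the neighbouring spots gave 0.14 for DnaJ-1 C and 0.05 for Hsc70-5, and 0.15 for DnaJ-1 minus Hsp26, -0.06 for DnaJ-1 minus l(2)efl and 0.18 for Hsc70-5 minus Cnx99A. l(2)efl was at -0.11 as deposited and at -0.11 to 0.14 with 1 replicate left out, and at -0.11 with clones on at least 2 arrays without replicate 4. DnaJ-1 C was at 0.04 with such clones without replicate 3. With 1 replicate left out, DnaJ-1 B minus DnaJ-1 C lay between -0.34 and 0.11, DnaJ-1 minus Hsp26 between -0.26 and 0.17, DnaJ-1 minus l(2)efl between -0.18 and 0.24, Hsc70-5 minus l(2)efl between -0.23 and 0.08 and Hsc70-5 minus Cnx99A between -0.02 and 0.01. The causes of these changes were not tested. Of the values of single clones under the alternatives, 102 kept their direction and side of the threshold, 7 passed it and 19 turned, and of the differences between genes 72 kept their direction and 9 turned. The arrays form 1 group, so the only pairing was by array, in the differences between clones and between genes. Spots without a value on replicate 4 limit what that array adds to DnaJ-1 A, DnaJ-1 C, Hsc70-5 and Hsp26.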
